A study of Mus musculus with 25 samples.

Results

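The EphB receptors and the B-type ephrins were followed across 8 compartments of the embryonic mouse palate. The members were the 5 receptors Ephb1, Ephb2, Ephb3, Ephb4 and Ephb6 and the 3 ligands Efnb1, Efnb2 and Efnb3, taken by gene symbol, and they are 8 of the 37406 genes in the table. The samples were laser captured tissue from embryos labelled as wild type CD1 at E14.5, when the palatal shelves had recently fused in the midline. In the anterior and in the posterior palate, a medial, a lateral, an oral and a nasal compartment were taken, with 3 replicates of each and 4 of the anterior nasal compartment, which gave 13 anterior and 12 posterior libraries. By the labels no treatment or mutation separates the groups, so the comparisons ask where in the palate each gene was expressed more. Names of 6 alignments carry Tgfbr2 or ERK2 beside WT, and whether these embryos had another background is not given. The replicates are separate samples by their labels, which do not tie them to embryos.

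Eph receptors are receptor tyrosine kinases, and ephrins are their ligands on neighbouring cells. The B-type ephrins span the membrane, so a contact between cells can signal forward through the receptor and in reverse through the ephrin, and the outcome is often repulsion, sorting of cells or a tissue boundary. In the palate this system is known from genetics: loss of Efnb1, or of Ephb2 together with Ephb3, gives cleft palate in mice, and mutations of EFNB1 cause craniofrontonasal syndrome. Ephb4 and Efnb2 are also the classical venous and arterial pair of blood vessels, and Ephb6 lacks kinase activity.

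All members were expressed in the palate, in amounts that differed more between genes than between compartments. Levels are in RPKM, reads per kilobase of transcript per M mapped reads. They are scaled to length but not to GC content, and GC-rich and GC-poor transcripts read differently in some libraries. Comparisons and ratios between genes are therefore approximate. Over the 25 libraries Efnb2 averaged 38.1 ± 15.0 RPKM (SD, n = 25), Ephb4 35.8 ± 12.4, Efnb1 27.6 ± 10.6, Efnb3 19.5 ± 7.91, Ephb3 18.9 ± 5.37, Ephb2 18.5 ± 6.60, Ephb6 8.13 ± 3.54 and Ephb1 4.28 ± 2.37. The 2 ends of this order, Efnb2 and Ephb1, were the members with the widest spread of compartment means, 3.00-fold for Efnb2 and 3.28-fold for Ephb1 from the lowest to the highest compartment. The 5 receptors summed to 85.6 ± 21.1 RPKM and the 3 ligands to 85.2 ± 21.3 RPKM, so that receptor and ligand transcripts were about equal in most libraries, with a mean ratio of 1.03 ± 0.238. The ratio was lowest in the posterior medial compartment, at 0.688 ± 0.183 (n = 3), and highest in the anterior oral compartment, at 1.43 ± 0.310 (n = 3). Posterior medial replicate 2 was at 0.541, and the others of its compartment at 0.893 and 0.631. Anterior oral replicate 1 was at 1.77, and the others of its compartment at 1.36 and 1.17.

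**Figure D1:**
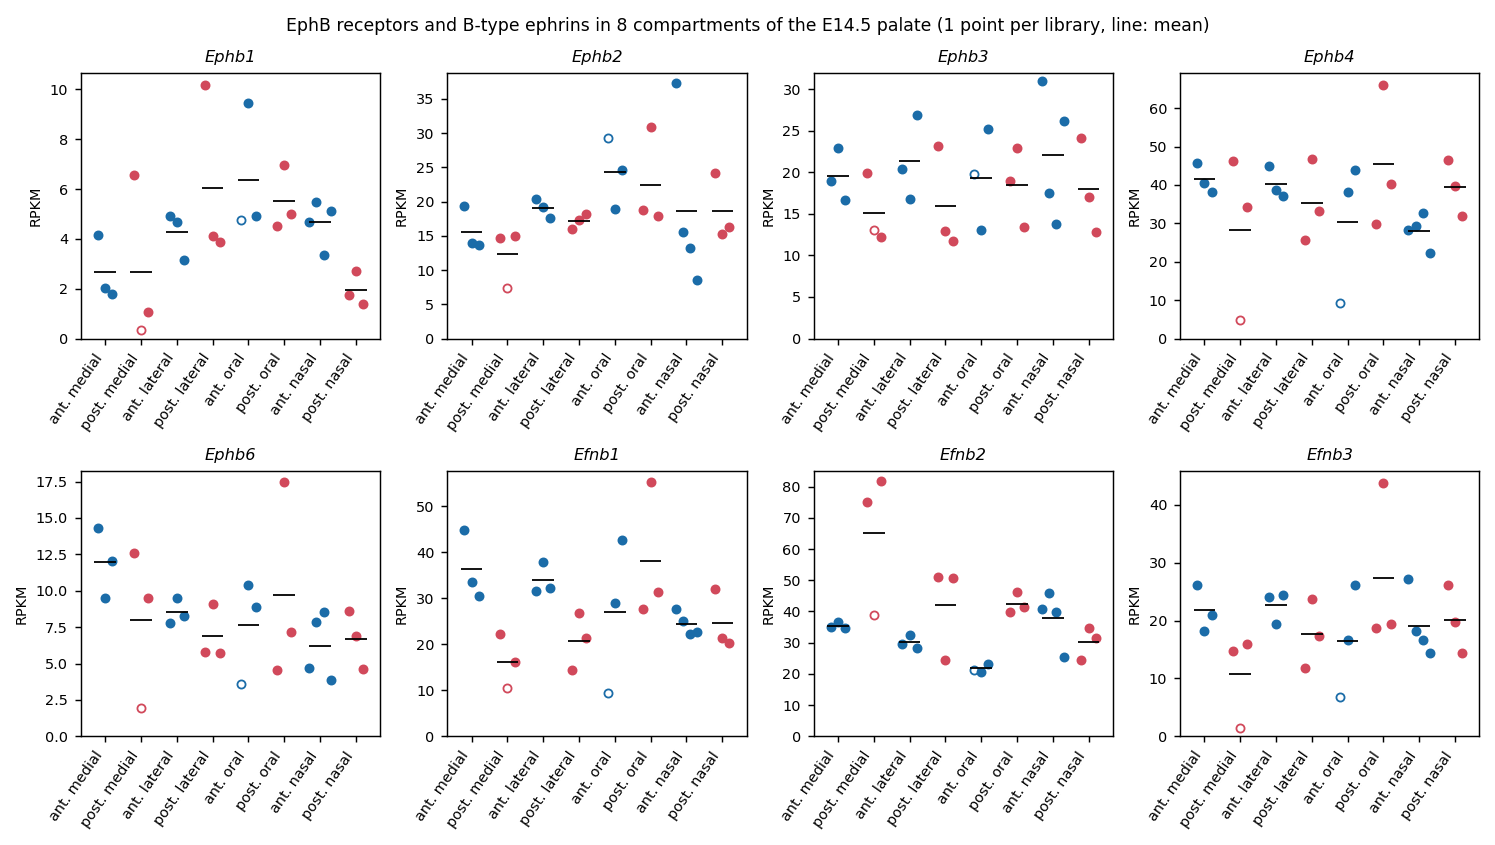
RPKM (vertical axes, linear from 0) of each member in the 8 compartments, with 1 point per library, blue for anterior and red for posterior, and a line at the mean of the compartment. Open points are posterior medial replicate 2 and anterior oral replicate 1, which stand apart from the other libraries. The points of Efnb2 run from 20.7 RPKM in the anterior oral to 81.9 RPKM in the posterior medial compartment.

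Depth and library quality set limits on these values. The implied totals were 1.64 to 6.56 M reads per library. The fewest implied reads behind a member in any library were 5 for Ephb1, 11 for Efnb3 and 17 for Ephb6, all in posterior medial replicate 2. That library listed 12935 genes above 0, where the other libraries listed 16330 to 20605. Anterior oral replicate 1 was the shallowest, and in it GC-rich transcripts read low against GC-poor ones by -1.52 on the log2 scale relative to the other replicates of its compartment. Posterior medial replicate 2 had the same trend, at -0.85, and the opposite one was largest in anterior oral replicate 3, at 1.12. The reference of this last value includes anterior oral replicate 1, so it is in part the reverse of the low value there. The transcripts of 6 members lie in the upper quartile of GC content, above 54.1%, with Efnb1 at 58.2% and Ephb4 at 58.4% among them, while Ephb1 has 52.7% and Efnb2 50.4%. Many of the results that rest on these libraries are therefore also given without them or library by library.

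Across the 8 compartments, no member passed the test for a difference of any kind. Of the 11913 genes that reached 5 RPKM in 3 or more libraries, 4.42% had an adjusted p under 0.05 in limma's moderated F test, against 0 of the 8 members. At an unadjusted p under 0.05, which 12% of the genes reached, there were 2 members, Efnb2 and Ephb1. Efnb2 lay nearest to the threshold, with F = 4.63 and an adjusted p of 0.0683, followed by Ephb1 with an adjusted p of 0.303 and Efnb1 with 0.544. Without the 2 libraries that stand apart, Efnb2 passed, with an adjusted p of 0.0138, and it also passed when the GC trend of each library was removed, with 0.00636. With the sequencing run in the fit its adjusted p was 0.948. Among neighbours in the order of compartment means, all 7 pairs overlapped for every member except Efnb2, for which 6 of 7 did, so the order within a gene is not resolved between neighbours.

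Efnb2, the ligand ephrin-B2 (gene ID 13642, chromosome 8, 8617439 to 8660773 in mm9), came closest to the threshold in this test. In the medial compartments it read 35.0, 36.6 and 34.6 RPKM in the 3 anterior libraries and 74.9, 38.9 and 81.9 RPKM in the 3 posterior ones. In the oral compartments it read 21.3, 20.7 and 23.2 RPKM in the anterior and 39.9, 46.2 and 41.6 RPKM in the posterior palate. In both regions every posterior library was above every anterior one, whereas 11.9% of the genes did not overlap in the medial and 8.26% in the oral comparison. In the lateral compartments it read 29.7, 32.5 and 28.4 RPKM in the anterior and 51.0, 24.5 and 50.6 RPKM in the posterior palate, which overlap through posterior replicate 2. In the nasal compartments it read 40.7, 45.9, 39.8 and 25.3 RPKM in the anterior and 24.4, 34.6 and 31.5 RPKM in the posterior palate, with the mean higher in the anterior one and the groups overlapping. Over all libraries the mean was 45.0 ± 17.9 RPKM (n = 12) in the posterior and 31.8 ± 7.90 RPKM (n = 13) in the anterior palate. The difference was 0.44 on the log2 scale (SE 0.18, 95% confidence interval 0.07 to 0.82), with an adjusted p of 0.220 in limma. Without the 2 libraries that stand apart it was 0.41 (SE 0.19), with an adjusted p of 0.242, and over 35 alternative settings it lay between 0.36 and 0.52, with adjusted p-values of 0.0688 to 0.841.

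The order of the oral and nasal compartments in Efnb2 was opposite in the anterior and the posterior palate. In the anterior palate all 3 oral libraries were below all 4 nasal ones, by -0.77 on the log2 scale (SE 0.27, 95% confidence interval -1.38 to -0.16, adjusted p = 1.00 in limma). In the posterior palate all 3 oral libraries were above all 3 nasal ones, by 0.51 (SE 0.22, 95% confidence interval 0.01 to 1.00, adjusted p = 0.608). The groups did not overlap for 3.67% of the genes in the anterior and 11.8% in the posterior comparison. The anterior lateral libraries were also all below the anterior medial ones, by -0.23 (SE 0.11, adjusted p = 0.387), in a comparison where 21.3% of the genes did not overlap. The test of the difference between the posterior and the anterior effect of oral against nasal gave 1.27 (SE 0.33, 95% confidence interval 0.56 to 1.99), which ranked 62 of 11442 genes and had an adjusted p of 0.400. Over the 22 alternative settings the value stayed between 1.13 and 1.46, and the adjusted p between 0.124 and 1.00. Without the 2 libraries that stand apart it was 1.26 (SE 0.35), with an adjusted p of 0.378. Within single sequencing runs, the anterior oral minus nasal difference was -1.02, -0.94 and -0.12 in the 3 runs that held both, and the posterior one 0.70 and 0.34 in 2 runs. All 5 had the sign of the pooled value, which follows from groups that do not overlap and adds no support to it. The anterior one was small in the run that held anterior nasal replicate 4, the lowest library of its compartment.

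The promoters of Efnb2, Efnb1 and Ephb4 are shown for their composition. In the posterior medial libraries Efnb2 was higher, and Efnb1 lower, than in the anterior medial ones. The level of Ephb4 was correlated with that of Efnb1, and more closely with those of Efnb3 and Ephb6. Each line gives the 250 bases before the RefSeq start in GRCm38.p6, in the direction of transcription, with CCAAT boxes (CCAAT) and GC boxes (GGGCGG) on either strand in capitals. The windows are chr8:8661243-8661492 on the minus strand for Efnb2, chrX:99135811-99136060 on the plus strand for Efnb1 and chr5:137349859-137350108 on the plus strand for Ephb4.
Efnb2: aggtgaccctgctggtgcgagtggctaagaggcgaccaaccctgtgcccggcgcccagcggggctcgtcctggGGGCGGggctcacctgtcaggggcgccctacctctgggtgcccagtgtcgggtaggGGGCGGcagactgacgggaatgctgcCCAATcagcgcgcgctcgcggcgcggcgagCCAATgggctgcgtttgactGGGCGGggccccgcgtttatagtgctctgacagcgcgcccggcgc
Efnb1: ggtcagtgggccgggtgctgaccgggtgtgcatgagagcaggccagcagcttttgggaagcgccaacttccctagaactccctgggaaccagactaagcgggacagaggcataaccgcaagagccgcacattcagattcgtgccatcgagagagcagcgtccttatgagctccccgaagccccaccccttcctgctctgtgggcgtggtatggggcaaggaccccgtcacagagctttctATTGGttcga
Ephb4: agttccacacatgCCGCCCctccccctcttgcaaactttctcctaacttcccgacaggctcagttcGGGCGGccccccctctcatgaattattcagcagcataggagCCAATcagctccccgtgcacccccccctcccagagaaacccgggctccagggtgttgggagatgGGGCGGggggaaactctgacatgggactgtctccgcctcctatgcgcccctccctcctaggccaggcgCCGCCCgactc

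The window of Efnb2 held 3 GC boxes and 2 CCAAT boxes and was 72% G or C, that of Ephb4 held 4 GC boxes and 1 CCAAT box at 64%, and that of Efnb1 held no GC box and 1 CCAAT box at 60%. Of the 32851 windows of this length, 32.7% held a GC box and 33.8% a CCAAT box, and their median was 52.4% G or C. Of the 8 members, 7 matched the table by symbol, the exception being Efnb3.

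Efnb1, ephrin-B1 (gene ID 13641, chromosome X, 96331469 to 96344330), was lower in every posterior than in any anterior library of the medial and of the lateral region. In the medial compartments it read 44.9, 33.5 and 30.5 RPKM in the anterior and 22.2, 10.5 and 16.1 RPKM in the posterior palate. In the lateral compartments it read 31.6, 38.0 and 32.2 RPKM in the anterior and 14.3, 26.8 and 21.4 RPKM in the posterior palate. Neither pair overlapped, as was the case for 11.9% of the genes in the medial and 18.9% in the lateral comparison. In the oral compartments it read 9.47, 29.0 and 42.7 RPKM in the anterior and 27.6, 55.4 and 31.3 RPKM in the posterior palate, where the low anterior value is that of the library that stands apart. In the nasal compartments it read 27.7, 25.1, 22.2 and 22.8 RPKM in the anterior and 32.1, 21.4 and 20.2 RPKM in the posterior palate. The oral and the nasal groups overlap. Over all libraries the posterior minus anterior difference was -0.30 on the log2 scale (SE 0.23, adjusted p = 0.576 in limma), and after removal of each library's GC trend it was -0.46 (SE 0.12), with an adjusted p of 0.0254. Over the 35 alternative settings the adjusted p ran from this value to 0.946, and without the 2 libraries that stand apart the difference was -0.33 (SE 0.17, adjusted p = 0.327). Within single runs it was -0.43 in the lateral, -1.46 in the medial and -0.63 in the oral region, and 0.49 in the nasal region. The medial value includes posterior medial replicate 2, which stands apart. Efnb1 was highest in the posterior oral compartment, at 38.1 ± 15.1 RPKM, and lowest in the posterior medial one, at 16.3 ± 5.86 RPKM.

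The ratio of Efnb2 to Efnb1 was highest in the posterior medial compartment. In the posterior medial compartment there was 3.37, 3.71 and 5.09 times as much Efnb2 as Efnb1 in the 3 libraries, and in the anterior medial one 0.778, 1.09 and 1.13 times. The anterior lateral libraries lay at 0.939, 0.854 and 0.882 and the posterior lateral ones at 3.56, 0.916 and 2.37, again with posterior replicate 2 beside the anterior values. Posterior medial replicate 2, the library that stands apart, lay between the other 2 of its compartment. In the anterior oral compartment the ratios were 2.25, 0.715 and 0.544, and the first of these is the library that stands apart. Across the 25 libraries the correlation between the log2 levels of Efnb1 and Efnb2 was -0.16, and -0.42 over the 23 libraries without those that stand apart. These libraries share runs and GC trends, so the correlation is only a description.

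**Figure D2:**
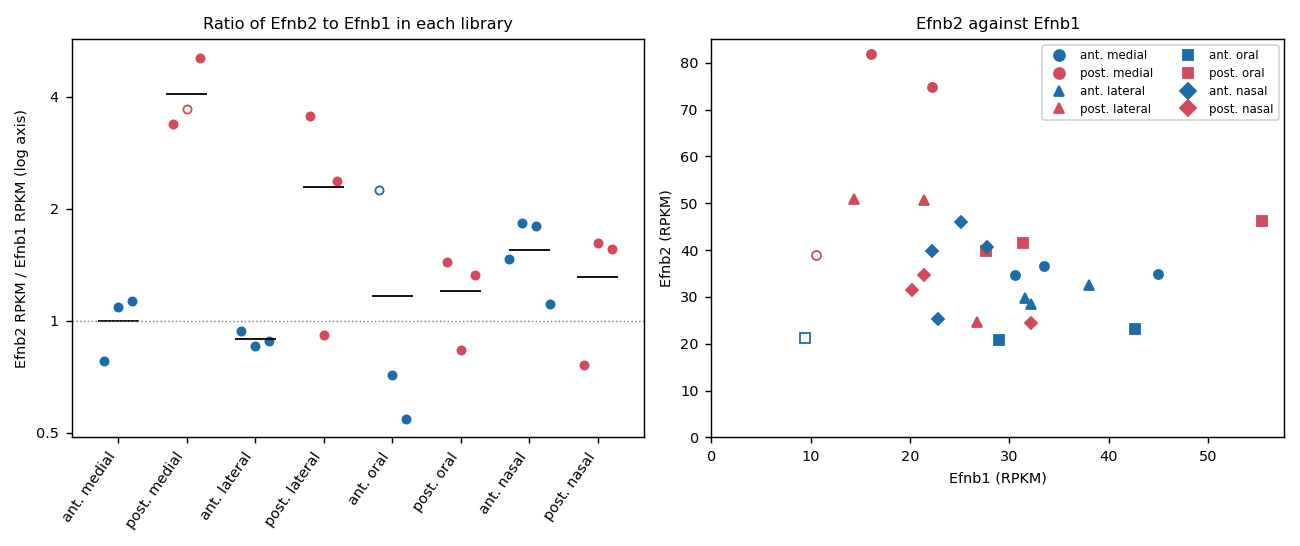
Left, the ratio of Efnb2 to Efnb1 RPKM in each library on a log axis, by compartment, with a line at the mean and a dotted line at equal levels. Right, Efnb2 against Efnb1 in RPKM, with 1 symbol per library. Blue is anterior, red is posterior and open symbols are the 2 libraries that stand apart. The posterior medial libraries lie at 3.37 to 5.09, and the anterior medial ones at 0.778 to 1.13.

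Efnb3, ephrin-B3 (gene ID 13643, chromosome 11, 69367594 to 69373739), was the least abundant of the ligands. In the medial compartments it read 26.2, 18.3 and 20.9 RPKM in the anterior and 14.8, 1.46 and 16.0 RPKM in the posterior palate. These do not overlap, as for 11.9% of the genes, and the value of 1.46 RPKM, from the library that stands apart, was its lowest of all. In the other regions the anterior and posterior libraries overlapped. Compartment means ran from 10.7 ± 8.06 RPKM in the posterior medial to 27.3 ± 14.2 RPKM in the posterior oral compartment. The posterior minus anterior difference was -0.28 (SE 0.34, 95% confidence interval -0.97 to 0.41, adjusted p = 0.762 in limma), and its sign changed in 1 of 35 alternative settings. Without the 2 libraries that stand apart it was -0.10 (SE 0.17).

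Among the receptors Ephb4 (gene ID 13846, chromosome 5, 137791337 to 137819897) was the most abundant. Compartment means ran from 28.1 ± 4.36 RPKM in the anterior nasal (n = 4) to 45.3 ± 18.7 RPKM in the posterior oral compartment (n = 3), and these 2 compartments overlapped. Its lowest libraries were posterior medial replicate 2, at 4.71 RPKM, and anterior oral replicate 1, at 9.15 RPKM, where the other 23 lay between 22.2 and 66.0 RPKM. The posterior minus anterior difference was 0.01 (SE 0.30, 95% confidence interval -0.61 to 0.63, adjusted p = 0.993) in limma. Without posterior medial replicate 2 and anterior oral replicate 1 it was 0.11 (SE 0.14, adjusted p = 0.750). In the anterior palate the oral minus nasal difference of Ephb4 was -0.16 (SE 0.52), and without the same libraries it was 0.55 (SE 0.24, adjusted p = 0.598), with the opposite sign. Ephb4 is the receptor that prefers ephrin-B2, and its ratio to Efnb2 ran from 0.121 in posterior medial replicate 2 to 1.91 in posterior nasal replicate 1. The lower end is the library that stands apart, and the next lowest ratio was 0.417, in posterior medial replicate 3.

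Ephb2 (gene ID 13844, chromosome 4, 136209525 to 136391850) and Ephb3 (gene ID 13845, chromosome 16, 21204868 to 21223377), the receptors linked with cleft palate, were at similar levels in most compartments. Ephb2 had its highest means in the oral compartments, 24.3 ± 5.19 RPKM in the anterior and 22.5 ± 7.24 RPKM in the posterior palate, and its lowest in the posterior medial one, at 12.4 ± 4.29 RPKM. In the posterior palate it read 16.0, 17.3 and 18.2 RPKM in the lateral and 14.7, 7.44 and 15.0 RPKM in the medial libraries. These groups do not overlap, as for 6.62% of the genes, and the difference was 0.54 (SE 0.36, 95% confidence interval -0.32 to 1.40, adjusted p = 0.957 in limma). Without posterior medial replicate 2 it was 0.21 (SE 0.23). Its highest library was anterior nasal replicate 1, at 37.2 RPKM, above the other 3 of that compartment at 15.6, 13.2 and 8.60 RPKM. Ephb3 varied least, with compartment means from 15.0 ± 4.24 RPKM in the posterior medial to 22.1 ± 7.87 RPKM in the anterior nasal compartment, 1.47-fold apart and overlapping. Its 4 anterior means were all above its 4 posterior means, but the libraries overlapped in every region, and the oral difference was only -0.05. The share of all genes with means in such an order was not counted. The posterior minus anterior difference over all libraries was -0.30 (SE 0.15, 95% confidence interval -0.62 to 0.02, adjusted p = 0.361 in limma).

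Ephb6 (gene ID 13848, chromosome 6, 41555481 to 41570506) was highest in the anterior medial compartment, with 14.3, 9.49 and 12.1 RPKM, against 7.75, 9.50 and 8.29 RPKM in the anterior lateral one. The ranges overlap by the single pair of 9.49 and 9.50 RPKM. The lateral minus medial difference was -0.47 (SE 0.17, 95% confidence interval -0.87 to -0.07, adjusted p = 0.245 in limma), and it took the other sign in 1 of 14 alternative settings. Its lowest mean, 6.24 ± 2.31 RPKM, was in the anterior nasal compartment.

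Ephb1 (gene ID 270190, chromosome 9, 101824458 to 102257023) was the least abundant member and was above 5 RPKM in 7 of 25 libraries. In the oral compartments it read 4.75, 9.46 and 4.91 RPKM in the anterior and 4.52, 6.98 and 5.02 RPKM in the posterior palate. In the nasal compartments it read 4.67, 5.49, 3.36 and 5.12 RPKM in the anterior and 1.74, 2.69 and 1.39 RPKM in the posterior palate. All 3 posterior nasal libraries were below all 4 anterior nasal and all 3 posterior oral ones, while the anterior oral and nasal libraries overlapped. Of the genes that reached the expression minimum, 20.3% did not overlap between the anterior and posterior nasal and 11.8% between the posterior oral and nasal compartments. Ephb1 did not reach that minimum in either comparison, and without a minimum its posterior oral minus nasal difference was 1.48, with an adjusted p of 0.233 in limma. The test of the difference between the posterior and the anterior oral-nasal effect gave 1.09 (SE 0.45, 95% confidence interval 0.11 to 2.07, adjusted p = 1.00). Elsewhere single libraries set the mean: posterior medial replicate 1 read 6.57 RPKM against 0.328 and 1.07 RPKM in the other 2, and posterior lateral replicate 1 read 10.2 RPKM against 4.14 and 3.88 RPKM. Both are the sole library of their run, and both have an alignment name that carries ERK2 beside WT. Without posterior medial replicate 1, the test over the 8 compartments gave Ephb1 an adjusted p of 0.00266, the lowest of 33 alternative settings, of which the highest was 0.512.

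The pairwise comparisons give the same picture in counts. In the anterior lateral against medial comparison 7 members passed the expression minimum of 5 RPKM in 3 libraries and 0 had an adjusted p under 0.05 in limma, where 2.51% of the genes did, and 1 member was under an unadjusted 0.05, where 15% were. In the posterior lateral against medial comparison 0 of 7 members were called, against 0% of the genes, and 0 were under an unadjusted 0.05, against 1.54%. In the anterior oral against nasal comparison the counts were 0 and 1 of 8 members, against 0% and 2.98% of the genes. These 2 comparisons called no gene at all. In the posterior oral against nasal comparison the counts were 0 and 1 of 7 members, against 1.25% and 8%. Between all posterior and all anterior libraries, with a minimum of 10 RPKM in 6 libraries, they were 0 and 1 of 6 members, against 3.32% and 15.3%. The interaction tests called 0 of 7 members for medial-lateral, against 0.00902% of the genes, and 0 of 8 for oral-nasal, against 0.035%, with 0 and 2 members under an unadjusted 0.05, against 3.36% and 3.38%. The members under an unadjusted 0.05 were Ephb6 in the anterior lateral against medial comparison, Ephb1 and Efnb2 in the oral-nasal interaction, and Efnb2 in the 3 others that had one. Medial and lateral libraries share no run in the anterior or in the posterior palate, so in those 2 comparisons the compartment and the run cannot be told apart.

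**Figure D3:**
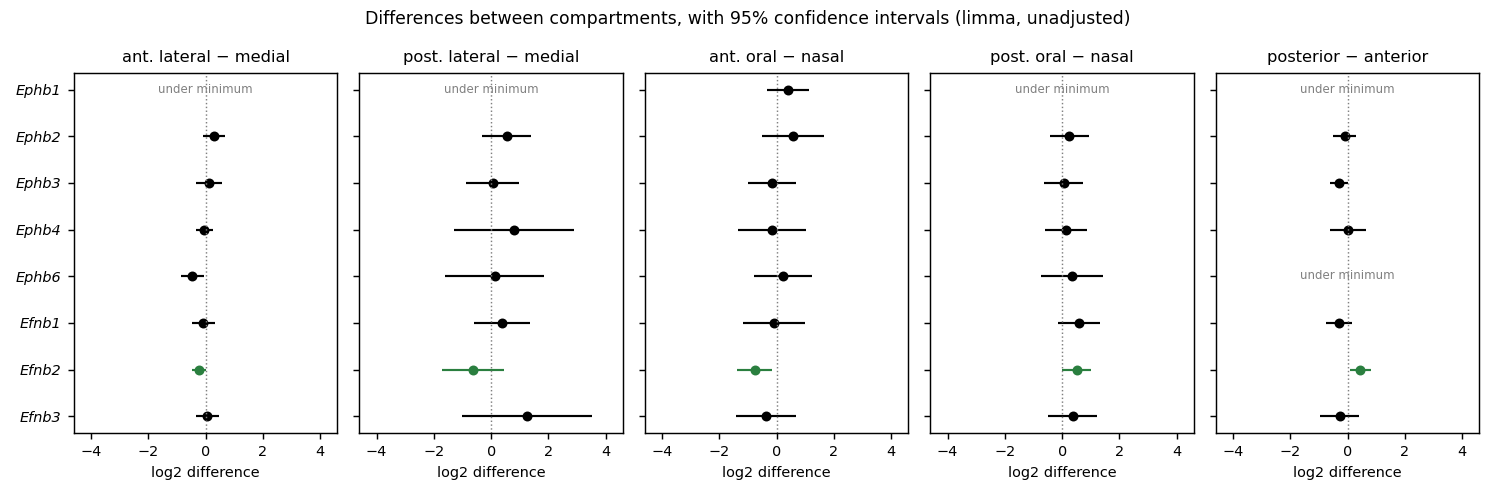
Differences between compartments for each member on the log2(RPKM + 0.1) scale, with unadjusted 95% confidence intervals from limma (horizontal lines), in 5 comparisons. Efnb2 is in green and members under the expression minimum carry no point. Efnb2 lies at -0.77 for anterior oral minus nasal, 0.51 for posterior oral minus nasal and 0.44 for posterior minus anterior, and most other intervals include 0.

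Several members were positively correlated from library to library, and Efnb2 was not among them. Over the 25 libraries the correlation of log2 levels was 0.92 between Ephb4 and Efnb3, 0.85 between Ephb4 and Ephb6, 0.81 between Efnb1 and Efnb3 and 0.80 between Ephb4 and Efnb1. Over the 23 libraries without those that stand apart these were 0.69, 0.81, 0.82 and 0.67. Efnb2 had correlations between -0.20 and 0.15 with the other 7 members. Over the 23 libraries they ran from -0.42 with Efnb1 and -0.26 with Efnb3 to 0.11 with Ephb6. The libraries in which the correlated members were lowest, anterior oral replicate 1 and posterior medial replicate 2, were also the ones with the lowest GC-rich transcripts, and posterior oral replicate 2, where Ephb4, Ephb6, Efnb1 and Efnb3 were highest, had a GC trend of 0.99. The part of this trend in the correlations was not tested.

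**Figure D4:**
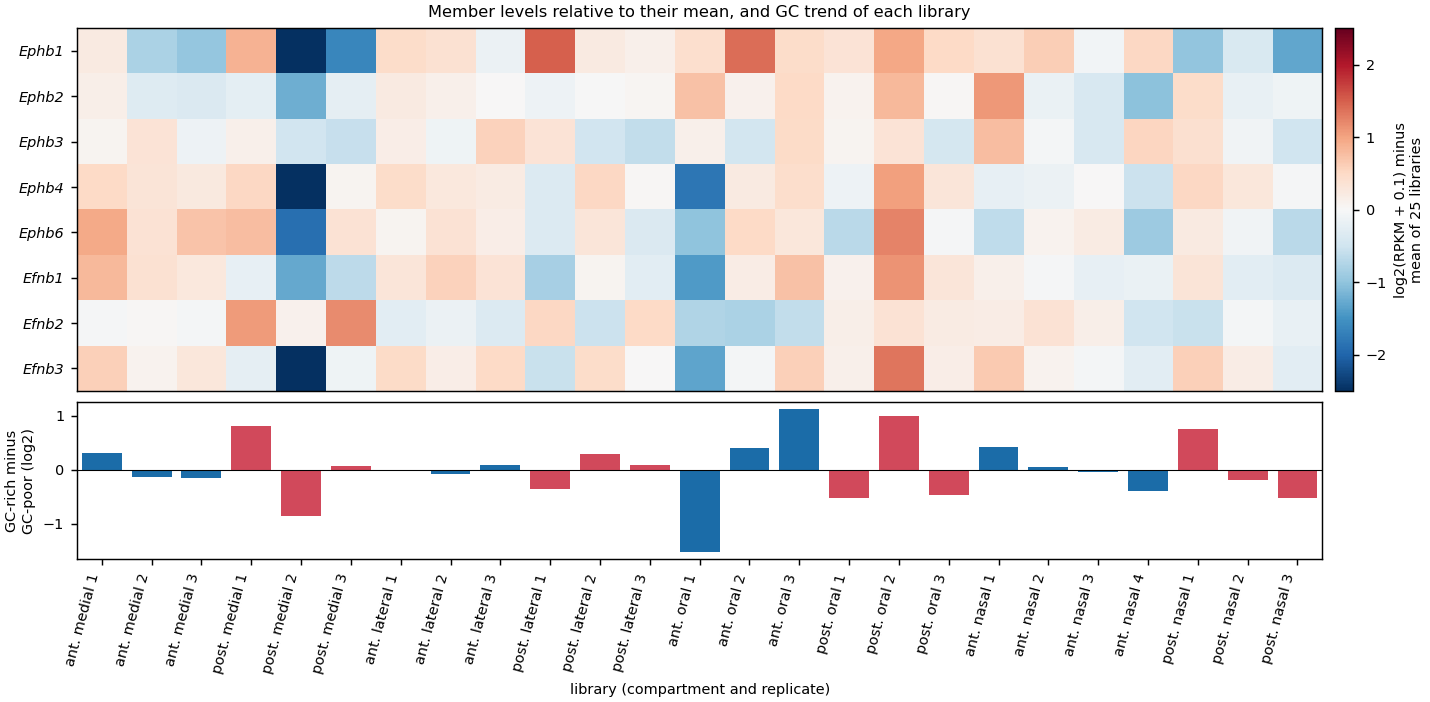
Top, log2(RPKM + 0.1) of each member in each library minus its mean over 25 libraries, with the colour scale ending at 2.5 in either direction. Bottom, the median deviation of GC-rich minus that of GC-poor transcripts in each library from the other replicates of its compartment, on the log2 scale. Ephb4, Ephb6, Efnb1 and Efnb3 are low in anterior oral replicate 1 and posterior medial replicate 2, whose bars are -1.52 and -0.85. In these libraries Efnb2 reads 21.3 and 38.9 RPKM, close to its lowest of 20.7 RPKM in the first and the lowest of its compartment in the second.

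The genes whose levels followed each member most closely were found among 11912 others, as Pearson correlations over the 25 libraries. For Efnb2 they included Col25a1, a membrane collagen, at 0.83 and Robo1, a Slit receptor, at 0.75, and these had 0.82 and 0.75 over 23 libraries. For Efnb1 they were Plekhm3 at 0.92, Midn at 0.88 and Tle3 at 0.88, and for Efnb3 Atg9a, Src and Apbb1, all at 0.96. For Ephb4 they were Cdc42ep1, Shank3 and Ldb1, all at 0.97, and for Ephb6 Syvn1, AI846148 and Amdhd2, at 0.87 to 0.88. Ephb1 was followed by Fgf18, Angptl4 and Ppapdc2 at 0.84, Ephb2 by Susd4 at 0.82 and by Nab2 and BC068281 at 0.80, and Ephb3 by D630045J12Rik, 3110070M22Rik and Fzd10 at 0.73 to 0.75. Without the 2 libraries that stand apart the values of Efnb3 were between 0.78 and 0.82, those of Ephb4 between 0.84 and 0.91 and those of Ephb1 between 0.72 and 0.76.

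The genes that act with the members were measured on the same libraries. Of 24 cytoplasmic partners of EphB signalling, the adaptors, Src family kinases, exchange factors and GTPases, 23 were tested between the anterior lateral and medial compartments and 1 was called, Fyn, where 2.51% of all genes were. This Src family kinase read 36.9, 32.1 and 35.4 RPKM in the lateral and 20.7, 17.0 and 22.9 RPKM in the medial libraries. The groups do not overlap, as for 21.3% of the genes, and the difference was 0.79 (SE 0.14, adjusted p = 0.0343 in limma). The call was lost in 9 of 14 alternative settings. The median difference over the list was 0.09, where that over all genes tested was -0.03. In each of the other 6 comparisons with a direction, 20 to 23 of the list were tested and 0 were called.

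Of 15 genes of ephrin-B reverse signalling, Gja1 was called in 2 comparisons with a direction, anterior lateral against medial, where 2.51% of all genes were called, and posterior against anterior, where 3.32% were. It encodes connexin 43, a gap junction protein that associates with ephrin-B1. It read 11.1, 8.86 and 8.28 RPKM in the anterior lateral and 20.5, 14.6 and 18.0 RPKM in the anterior medial libraries, a difference of -0.90 (SE 0.17, adjusted p = 0.0430 in limma), with 11 of the list tested. These groups do not overlap, as for 21.3% of the genes. Over all libraries it had 20.7 ± 5.94 RPKM (n = 12) in the posterior and 13.1 ± 5.33 RPKM (n = 13) in the anterior palate, a rise of 0.72 (SE 0.20, adjusted p = 0.0477), with 9 of the list tested. Both calls lie close to the threshold, and they were lost in 12 of 14 and 20 of 35 alternative settings. The median over the list was -0.03 in the first comparison, equal to that of all genes, and 0.08 in the second, where that of all genes was 0.03. In the test over 8 compartments Gja1 had an adjusted p of 0.0389, a call lost in 20 of 33 alternative settings, and in the other 5 comparisons with a direction 0 of the list were called.

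Of 10 genes for processing of Ephs and ephrins or for their co-receptors, 7 to 9 were tested and 0 were called in any comparison, with medians between -0.13 and 0.12. Of the 14 EphA receptors and A-type ephrins, 7 or 8 were tested and 0 were called in a comparison with a direction, while Epha5 was called in the test over all 8 compartments, with an adjusted p of 0.0274, a call lost in 5 of 33 alternative settings, where 4.42% of all genes were called. The medians of that list ran from -0.47 between posterior lateral and medial to 0.50 for the oral-nasal interaction, where those of all genes were 0.05 and 0.02. Epha5 read 0.794, 0.578 and 0.333 RPKM in the posterior nasal and 5.11, 4.58 and 5.33 RPKM in the posterior oral libraries. Like Ephb1 it was lowest in the posterior nasal compartment and did not reach the expression minimum in this comparison. The 2 groups do not overlap, as was the case for 11.8% of the genes that reached it.

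Markers of other cell types were present in all compartments, and because the samples are bulk tissue, fewer cells of a type and less RNA per cell cannot be told apart. The 9 mesenchyme markers, among them Prrx1 and Col1a1, summed to 755 to 1527 RPKM, so mesenchyme transcripts were present in every library. These sums do not show which compartment was captured. The 11 endothelial markers, Pecam1 and Cdh5 among them, were all detected in every library. They summed to 241 to 277 RPKM in the anterior lateral, 180 to 311 in the anterior oral and 215 to 300 in the posterior oral compartment, to 168 to 203 in the anterior medial, 139 to 237 in the posterior medial and 202 to 253 in the posterior lateral one, and to 117 to 185 in the anterior nasal and 94.0 to 152 in the posterior nasal one. The 5 arterial markers, which include Gja5 and Dll4, summed to 63.1 to 86.3 RPKM in the anterior lateral and 37.5 to 94.0 in the anterior oral compartment, where Efnb2 was lowest, 28.4 to 82.6 in the anterior nasal and 11.7 to 17.2 in the anterior medial one. In the posterior palate they summed to 8.98 to 30.1 RPKM in the medial compartment, where Efnb2 was highest, 13.7 to 31.2 in the lateral, 23.2 to 28.5 in the nasal and up to 24.7, with a median of 18.8, in the oral one. Dll4 and Hey1 were at 0 in 1 library each, and Dll4 reached 5 RPKM in 2 libraries. Single arterial markers differed in their course. Hey1 read 17.4 ± 0.987 RPKM in the posterior nasal and 5.13 ± 1.83 RPKM in the posterior oral compartment. This oral minus nasal difference was -1.81 (adjusted p = 0.0339 in limma), and no other arterial marker reached the minimum there. Gja5 and Gja4 were called higher in the anterior lateral than in the anterior medial compartment. The 3 venous markers ran from 32.2 to 117 RPKM, highest in a posterior oral library.

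The 11 epithelial markers, most of them keratins, summed to 73.3 to 236 RPKM in the posterior medial and 112 to 179 in the anterior medial compartment, against 28.0 to 49.8 in the posterior lateral and 46.2 to 106 in the anterior lateral one. Of 8 tested between the anterior lateral and medial compartments 4 were called, where 2.51% of all genes were. Krt14, Krt17 and Krt6a were lower in the lateral one. Krt8 was higher there, at 7.75 ± 2.88 against 2.89 ± 0.674 RPKM (difference 1.36, adjusted p = 0.0498 in limma). The 5 osteoblast markers summed to 376 to 546 RPKM in the posterior nasal compartment, where Ephb1 and Epha5 were lowest, and to 43.6 to 161 RPKM elsewhere. The 8 macrophage markers had their highest median in the posterior medial compartment, at 87.5 to 138 RPKM, and the 5 red cell genes found of 6 ran from 154 to 656 RPKM, the highest value again being posterior medial. In the other lists muscle markers summed to 0.297 to 124, nerve and Schwann cell markers to 23.7 to 79.2 and smooth muscle and pericyte markers to 29.5 to 163 RPKM. The part of these cell types in the levels of the members was not tested.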

How the data were processed

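RNA from laser captured tissue was amplified with the NuGEN Ovation RNA-Seq System V2, tagmented with Nextera and sequenced. The authors deposited 1 table of RPKM values for 37406 genes in 25 libraries, of which 15007 are at 0 throughout. Per the labels the reads were aligned with TopHat to mm9, with no version given, and per the methods RPKM values were made in GeneSpring 12.6.1 after removal of duplicate and multiply aligned reads. Relative depth is therefore implied by the steps between low values: 299 of 300 pairs of libraries gave a ratio equal, within 0.0001, to that by way of the others. The absolute scale was set by matching implied lengths to annotated transcripts. Of 1624 genes compared, 206 had an implied length that is listed, and among the members only Efnb1 did. Totals, reads and counting errors are thus estimates. The totals, with a median of 3.27 M reads, lie far below the average depth that the paper reports. Whether that average was taken before the removal of reads is not given. Totals were 1.64 to 6.56 M reads, and 1 read on 2000 bases equals 0.153 RPKM at median depth. Counting error of a member in a library of median reads was 4.2% to 12.1%, and it covers counting only.

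Groups came from the labels. The run (1 of 8, of which 2 hold a single library) came from headers of the paper's supplementary tables. Names of 6 alignments carry Tgfbr2 (anterior nasal replicate 4, anterior oral replicate 3, posterior nasal and oral replicate 1) or ERK2 (posterior lateral and medial replicate 1) beside the letters WT, and whether these embryos had another background than the labelled CD1 is not given in the sources used here.

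Values were compared on log2(RPKM + 0.1) with limma 3.58.1 in R 4.3.3, as the study's pairs of compartments with its expression minimum, 5 RPKM in 3 of the samples compared (10 RPKM in 6 for posterior against anterior), with Benjamini-Hochberg adjustment across every gene in the fit and calls at an adjusted p under 0.05. The study's pooled test needs read counts and was not used. An exact permutation test of 3 against 3 cannot go below 0.1, so none was made. The test was checked on simulated data.

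The study's own thresholds, other pseudocounts, no minimum, median centring, the replicate number as a block, all samples in 1 fit with or without the run, and each library left out were set as alternatives beforehand. The removal of a GC trend (spline with 4 degrees of freedom on transcript GC from GENCODE M21, known for 90.4% of expressed genes) and the omission of 2 libraries were chosen after seeing the data. The members and gene lists were chosen with earlier results of these data known. All members are named in every comparison, with list genes at an adjusted p under 0.05 (at most 5 per comparison) and the 3 genes most correlated with each member, of which 1 is not reported here. Promoters are from RefSeq (GRCm38.p6), and coordinates of genes are the table's.

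Same-numbered replicates of different compartments had a median correlation of deviations of 0.04, against -0.02 for other pairs. In the anterior oral and nasal compartments all 3 same-numbered pairs were over 0.1 (0.12 to 0.24). These values are low, and the posterior oral and nasal pairs reached 0.31. Of the 3 anterior pairs only that of replicate 1 shared a run. Whether the numbers pair the samples is therefore not known, and the replicate block is only an alternative. Python 3.11.15, numpy 2.4.6, pandas 2.3.3 and matplotlib 3.10.9 were used.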

Additional observations from a re-analysis of the deposited data

Results flagged for a closer look

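Efnb2 in the oral against the nasal compartment stood out because every sample of the anterior palate went one way and every sample of the posterior palate the other. All 3 anterior oral libraries were below all 4 anterior nasal ones, and all 3 posterior oral libraries were above all 3 posterior nasal ones. Of all genes tested, 3.67% did not overlap in the anterior and 11.8% in the posterior comparison. The share of genes with both, in opposite directions, was not counted. The difference between the effects was 1.27 on the log2 scale, and its test had an adjusted p of 0.400 in limma, so it did not pass the correction over 11442 genes. Among the 8 members in the anterior nasal compartment, the only group with 4 samples, no library lay far enough from the others to stand out.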

How the results depend on the processing

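The number of members called was 0 in each of the 8 comparisons, and it stayed at 0 under every alternative run except in 2 of them. Between posterior and anterior it was 1 after removal of the GC trend (Efnb1). Over the 8 compartments it was 1 when centred on the median and 1 without the 2 libraries that stand apart (both Efnb2), and 2 after removal of the GC trend (Efnb1 and Efnb2). With each library left out in turn it ran from 0 to 1: Efnb2 was called without posterior lateral replicate 2 (adjusted p = 0.0143), posterior medial replicate 2 (0.00753) or anterior nasal replicate 4 (0.0409), and Ephb1 without posterior medial replicate 1 (0.00266). No call of a member or named gene reversed.

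The counts over all genes moved more. For anterior lateral against medial, 262 genes were called, 299 with a pseudocount of 1, 157 with the replicate block, 55 to 195 with a library left out, 31 with all samples in 1 fit and 0 with the run too. For posterior oral against nasal they were 132, 11 without a minimum and 12 to 57 with a library left out, and for posterior against anterior 286, 485 without a minimum and 143 with the run. Over the 8 compartments they were 526, 177 with the run and 917 without the 2 libraries that stand apart. At an unadjusted p under 0.05 and a fold over 2, there were 116 genes between posterior lateral and medial, 154 between anterior oral and nasal and 370 between posterior oral and nasal. With all samples in 1 fit the first of these had 25 and the second 6, against 0 in both, and the second also had 6 without anterior oral replicate 1. The interactions called 0 to 10 genes.

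The replicate block changed no call of a member. For the anterior oral against nasal difference it gave 0 members and Efnb2 at -0.95, though whether the numbers pair those samples is not known. It ended the calls of Fyn (0.79, adjusted p = 0.0664) and Gja1 (-0.90, adjusted p = 0.0572, for anterior lateral against medial and 0.66, adjusted p = 0.0961, for posterior against anterior). Without the block these differences were 0.79, -0.90 and 0.72. The causes of these changes were not tested. Intervals of Ephb4 and Efnb3 in the posterior medial compartment are wide, and an implied 5 reads of Ephb1 in 1 library leave its level there uncertain.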
